A study of Mus musculus with 2 samples.

Results

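The cells described here are adrenal endothelial cells that carry Plvap together with Esm1, Npr3 and their companions Hmcn1, Mal and Gzmk, and they are called Esm1/Npr3 cells. A cell was taken when it had at least 1 Plvap transcript molecule (UMI) and at least 3 UMIs from at least 2 of the 5 markers Esm1, Npr3, Hmcn1, Mal and Gzmk. Cells with 2 or more of the 6 tip-cell genes Apln, Kcne3, Kcnj8, Kcnj2, Ackr3 and Gm867 were left out. The rule took 1735 of the 9927 cells that passed the cell filter, 856 of 3793 in the VEGF/LysM library and 879 of 6134 in the WT library. They were set against the other 4293 Plvap-positive cells, 1528 in the VEGF/LysM library and 2765 in the WT library.

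Both groups were female mice of 12 weeks, and viable CD31+ CD45- cells of the adrenal gland were sorted and profiled by droplet single-cell RNA sequencing. The mutant group is labelled VEGF/LysM and the control group wild type (WT), and the study asks what macrophage VEGF-A does for the variety of adrenal endothelium. LysM is another name of the Lyz2 gene of myeloid cells, and the sources used here do not spell out the alleles or how many mice were pooled. Each group is 1 library, so every difference between them compares 2 libraries, and genotype, mouse, sort and library cannot be told apart. No value below has a replicate check. The libraries held 10323972 UMIs in 3807 cell barcodes (VEGF/LysM) and 8606348 UMIs in 6276 cell barcodes (WT). Between them 10 barcodes were shared, of which 5 belonged to an Esm1/Npr3 cell in either library and 0 in both.

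The adrenal cortex is fed by fenestrated capillaries, whose wall is pierced by small pores. Plvap encodes the protein of the diaphragms that span these pores. Esm1 encodes a secreted proteoglycan (endocan) made by endothelium that responds to VEGF-A, and Npr3 encodes the natriuretic peptide clearance receptor, which removes atrial and related peptides from the circulation. Hmcn1 encodes hemicentin-1 of the extracellular matrix, Mal a membrane proteolipid and Gzmk a granzyme best known from lymphocytes.

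In Esm1/Npr3 cells the 5 markers, whose values chose the cells and are a description only, differed widely in level. Levels are UMIs per 1000000 UMIs of the same cells (CPM). Esm1 stood at 2454 CPM in VEGF/LysM Esm1/Npr3 cells and 2603 CPM in WT Esm1/Npr3 cells, and Npr3 at 1380 CPM in VEGF/LysM and 1642 CPM in WT cells. VEGF/LysM Esm1/Npr3 cells had 457 CPM of Gzmk, 323 of Mal and 132 of Hmcn1, and WT ones had 685 CPM of Gzmk, 282 of Mal and 162 of Hmcn1. Esm1 was found in 94.5% of VEGF/LysM and 93.7% of WT Esm1/Npr3 cells, whereas Hmcn1 was found in 18.1% of VEGF/LysM and 17.3% of WT ones. In the other Plvap-positive cells, of like median depth, an Esm1 UMI was found in 25.9% of VEGF/LysM and 20.4% of WT cells. The group is thus mainly one of Esm1 and Npr3, and the commonest pair of markers was Esm1 with Npr3 alone, in 212 VEGF/LysM and 267 WT cells. All 5 markers were found together in 51 VEGF/LysM cells, 5.96% of them, and in 2.39% of WT cells, whose median depth was lower.

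Gzmk needs care. By the annotation of GRCm38 (mm10) its gene body runs along chromosome 13 from 113171608 to 113225908 on the minus strand, and that stretch holds the whole of Esm1, which lies at 113209659 to 113218098 on the plus strand. The sources used here do not state whether counting used the strand, so reads of these overlapping genes cannot be told apart. Npr3 lies on chromosome 15 (11839896 to 11907287), Hmcn1 on chromosome 1 (150562524 to 150993435) and Mal on chromosome 2 (127633226 to 127656695), all on the minus strand. The markers of 57 VEGF/LysM and 81 WT Esm1/Npr3 cells were Esm1 and Gzmk alone.

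Each marker was also found in cells chosen without it, which gives a value its own counts did not fix. With Esm1 left out of the rule, the cells taken by the other 4 genes had 2965 CPM of Esm1 against 644 CPM in the remaining Plvap-positive cells of the VEGF/LysM library, a ratio of 4.61. The ratio was 4.56 in the WT library. With Npr3 left out it was 5.41-fold higher in the VEGF/LysM library and 4.31-fold higher in the WT library. In the VEGF/LysM library Hmcn1 was 5.62-fold and Mal 5.71-fold higher, and in the WT library Hmcn1 was 7.56-fold and Mal 4.25-fold higher. With Esm1 and Gzmk both left out of the rule, Esm1 was still 3.00-fold higher in the VEGF/LysM library and 3.18-fold higher in the WT library, so the pair of overlapping genes was not needed to find Esm1-rich cells.

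The same was seen in single cells thinned to 1000 UMIs each, over all Plvap-positive cells. Esm1 was found in 66.9% of cells with an Npr3 UMI against 26.2% of cells without one in the VEGF/LysM library, and in 63.7% against 21.9% in the WT library. The odds of finding 1 marker with the other were more than 2.5 times higher for each of the 10 pairs in both libraries. Esm1 with Gzmk had the highest odds ratios (19.5 in the VEGF/LysM library and 16.9 in the WT library), and these are the genes that overlap. Npr3 with Hmcn1, which lie on different chromosomes, came next in the VEGF/LysM library with 9.42 and had 7.46 in the WT library.

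The fenestrated label rests on Plvap, and the genes described next do not test it. Genes of fenestrae and caveolae are given further below. Plvap is part of the rule and every cell of both sets carries it, so its level is a description and no check: 1267 against 1413 CPM in the VEGF/LysM library and 1364 against 1502 CPM in the WT library. Pecam1, the CD31 of the sort, stood at 1195 against 1241 CPM in the VEGF/LysM library and at 1291 against 1322 CPM in the WT library. Of the 12 pan-endothelial genes, 1 was at least 1.5-fold higher and 1 lower in the VEGF/LysM library, and 1 higher and 2 lower in the WT library. The 6 genes of continuous capillaries summed to 4439 against 5476 CPM in the VEGF/LysM library and 3402 against 3489 CPM in the WT library, so RNA of that list was plentiful in both sets of cells. At least 2 of them were found in 63.2% of VEGF/LysM and 39.0% of WT Esm1/Npr3 cells, and 4 or more in 4.67% of VEGF/LysM and 5.46% of WT ones. None of the 6 passed 1.5-fold in either direction, but without the cells that carried markers of another cell type 2 were lower in the VEGF/LysM library and 1 in the WT library. Cells that carry Esm1 and Npr3 without a Plvap UMI also exist, since 16.2% of VEGF/LysM and 31.0% of WT cells that met every other part of the rule had no Plvap UMI, and at these depths a missing UMI does not show a missing transcript.

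Markers of other cell types were sparse but not equal. The 17 immune genes summed to 1400 UMIs (553 CPM) in VEGF/LysM Esm1/Npr3 cells, of which 742 lay in 5 cells, and to 302 UMIs (216 CPM) in WT ones, although the sort removed CD45+ cells. In the other Plvap-positive cells the sums were 513 CPM in the VEGF/LysM library and 372 CPM in the WT library. The 10 adrenocortical genes summed to 97.2 CPM in VEGF/LysM and 109 CPM in WT Esm1/Npr3 cells, with Cyp11b2, the aldosterone synthase, at 0 in both. Chromaffin genes had 1 UMI in each library, and fibroblast genes 7 in VEGF/LysM and 3 in WT Esm1/Npr3 cells. Mural genes had 27.7 CPM in VEGF/LysM and 23.6 CPM in WT Esm1/Npr3 cells, against 12.4 and 12.8 CPM in the other Plvap-positive cells of the same libraries, and 51 of their 70 VEGF/LysM UMIs lay in 5 cells. Genes of proliferating cells had 28 UMIs in VEGF/LysM and 25 in WT Esm1/Npr3 cells. At least 2 genes of an immune, adrenocortical, mural or fibroblast list were found in 54 VEGF/LysM Esm1/Npr3 cells (6.31%) and in 30 WT ones (3.41%). Empty droplets were not used here, so free RNA in the droplets was not measured.

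The share of Esm1/Npr3 cells was higher in the VEGF/LysM library, by less once depth was made equal. Of all kept cells they made up 22.6% in the VEGF/LysM library and 14.3% in the WT library, a gap of 8.24 points. The median Esm1/Npr3 cell had 2466 UMIs in the VEGF/LysM library and 1299 in the WT library, and a rule that needs 3 marker UMIs can depend on depth. Among Plvap-positive cells the share did not rise steadily with depth in either library, as given below, and why thinning narrowed the gap was not tested. After every cell was thinned to 1000 UMIs, the share was 12.6% (95% interval 11.6% to 13.8%, 443 of 3503 cells) in the VEGF/LysM library and 10.7% (9.73% to 11.7%, 426 of 3993 cells) in the WT library. The gap was then 1.98 points (0.52 to 3.44), an interval that covers counting error only. Thinning left out the shallower cells, so that 92.3% of VEGF/LysM and 65.1% of WT kept cells remained. After thinning to 2000 UMIs, which kept 61.4% of VEGF/LysM and 14.2% of WT cells, the gap was 5.34 points (2.34 to 8.14), so its size depended on the depth chosen. As a share of Plvap-positive cells the thinned values were 25.3% in the VEGF/LysM and 18.9% in the WT library, a gap of 6.40 points. The Plvap-positive part itself changed with thinning. Before thinning it was 62.85% of VEGF/LysM and 59.41% of WT kept cells. After thinning to 1000 UMIs it was 1753 of 3503 VEGF/LysM and 2257 of 3993 WT cells, the smaller part then being that of the VEGF/LysM library.

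**Figure D1:**
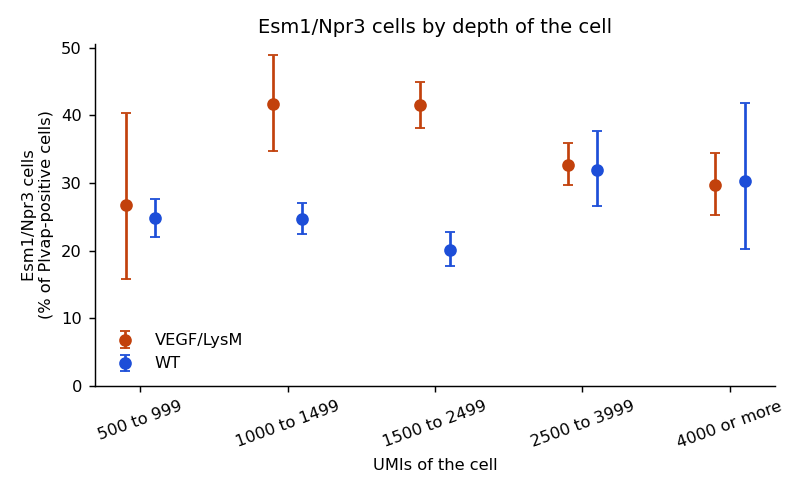
Share of Plvap-positive cells that are Esm1/Npr3 cells (y axis, %) by the number of UMIs of the cell (x axis, 5 classes), with exact 95% binomial intervals that cover counting error only. The VEGF/LysM share lies above the WT share from 1000 to 2499 UMIs and beside it at the shallow and the deep end.

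The gap sat in the middle of the depth range. Among Plvap-positive cells with 1000 to 1499 UMIs, 41.7% were Esm1/Npr3 cells in the VEGF/LysM library and 24.7% in the WT library. With 1500 to 2499 UMIs the shares were 41.5% (VEGF/LysM) and 20.1% (WT). From 2500 to below 4000 UMIs they were 32.7% (VEGF/LysM) and 31.9% (WT), and from 4000 UMIs upwards 29.7% (VEGF/LysM) and 30.3% (WT), with overlapping intervals. Thus a higher share in the VEGF/LysM library was seen at some depths and not at others, and the deepest WT class held only 76 Plvap-positive cells. The limit on tip-cell genes also acted unequally: of the Plvap-positive cells that met the 5-marker limit, it removed 94 (9.90%) in the VEGF/LysM library and 39 (4.25%) in the WT library.

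Next the genes outside the rule were compared between Esm1/Npr3 cells and the other Plvap-positive cells. Esm1/Npr3 cells had more RNA of the secreted factors Igfbp3, Sema3g, Dkk2 and Tgfb2 and of 8 of 15 arterial genes in the VEGF/LysM library and 6 of 11 in the WT library. They had less of 6 of 9 venous genes in the VEGF/LysM library and of 5 of 8 in the WT library. They also carried more Cyp26b1, a gene of retinoic acid clearance, with 226 against 65.1 CPM in the VEGF/LysM library and 994 against 232 CPM in the WT library. The other Plvap-positive cells include 138 VEGF/LysM and 98 WT cells with 2 or more tip-cell genes. The Cyp26b1 level of those cells alone is not given here, so the gene is not shown to be particular to Esm1/Npr3 cells. Of 9808 genes with at least 50 UMIs in each library, 178 (1.81%) were at least 1.5-fold higher in both libraries and 280 (2.85%) at least 1.5-fold lower in both. In the VEGF/LysM library alone 3.9% of 10520 genes were higher and 6.3% lower, and in the WT library 4.09% of 9873 genes were higher and 8.08% lower. These shares are the background for the gene lists below.

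**Figure D2:**
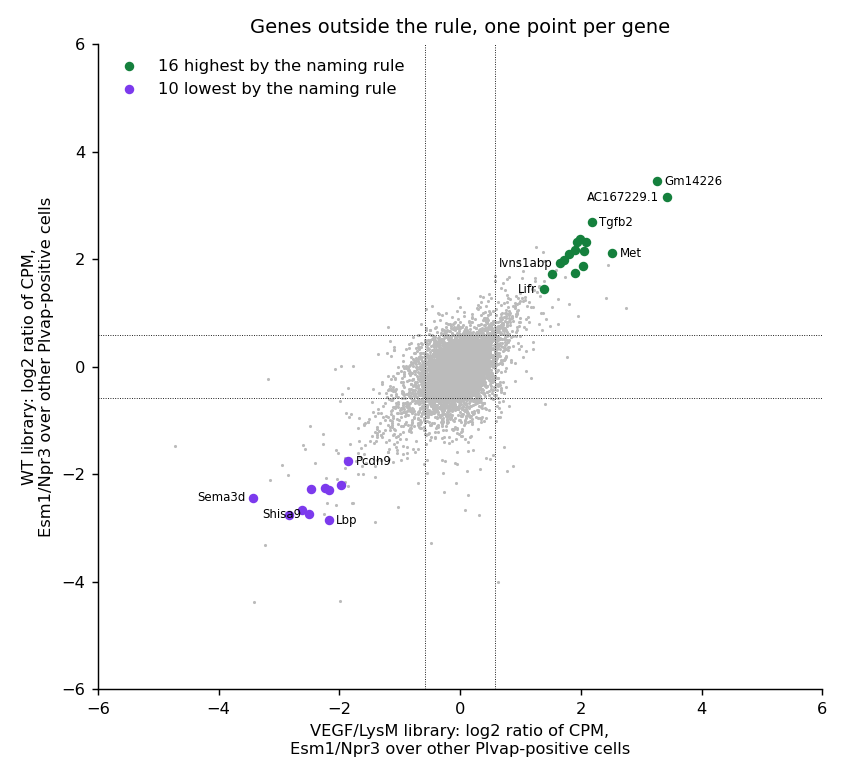
Log2 ratio of CPM, Esm1/Npr3 cells over other Plvap-positive cells, in the VEGF/LysM library (x axis) and the WT library (y axis), for genes outside the rule with counts in both sets of cells. Dotted lines mark 1.5-fold, and the coloured genes were picked by a rule that asks for a difference in both libraries, so their place in the corners is part of how they were chosen.

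The leading genes by their interval included 2 with no common name. AC167229.1, which GENCODE lists by its gene ID as a long intergenic RNA, had 1761 against 165 CPM in the VEGF/LysM library and 1808 against 203 CPM in the WT library, log2 ratios of 3.42 (3.31 to 3.53) and 3.16 (3.04 to 3.27). Gm14226 had 347 against 36.2 CPM in the VEGF/LysM library and 450.2 against 41.3 CPM in the WT library. No role is given here for either of them, and Gm14226 is a predicted protein-coding gene that the annotation marks as overlapping another locus. The next largest ratio in the VEGF/LysM library among the 16 named genes was that of Met, the receptor of hepatocyte growth factor, with 55.3 against 9.64 CPM and a log2 ratio of 2.52 (2.03 to 3.04). Met had 47.2 against 10.9 CPM in the WT library.

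Several of the leading genes encode secreted signals. Sema3g, a class 3 semaphorin of arterial endothelium, had 292 against 70.3 CPM in the VEGF/LysM library and 324 against 72.8 CPM in the WT library, log2 2.06 (1.86 to 2.25) and 2.16 (1.94 to 2.37). Dkk2, of the Dickkopf family of Wnt modulators, had 574 against 141 CPM in the VEGF/LysM library and 501 against 137 CPM in the WT library, log2 2.03 and 1.88. Tgfb2, a TGF-beta ligand, had 57.7 against 12.6 CPM in the VEGF/LysM library and 70.0 against 10.9 CPM in the WT library, log2 2.19 and 2.68. Igfbp3, which binds insulin-like growth factors and was the most abundant of these secreted products, had 3188 against 1346 CPM in the VEGF/LysM library and 4054 against 1302 CPM in the WT library. Its log2 ratios were 1.24 (1.20 to 1.29) in the VEGF/LysM and 1.64 (1.58 to 1.69) in the WT library.

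Gap junction and receptor genes stood beside them. Gja1 encodes connexin 43, and had 262 against 66.2 CPM in the VEGF/LysM library and 319 against 61.4 CPM in the WT library, log2 1.99 and 2.38. Gja4 encodes connexin 37 of arteries, and had 41.5 against 11.1 CPM in the VEGF/LysM library and 47.2 against 10.4 CPM in the WT library, log2 1.90 (1.40 to 2.40) and 2.18 (1.60 to 2.76). Cxcr4, the receptor of the chemokine Cxcl12, was lower in level, with 28.1 against 6.64 CPM in the VEGF/LysM library and 34.3 against 6.88 CPM in the WT library. Lifr, the leukaemia inhibitory factor receptor, was abundant, with 851 against 324 CPM in the VEGF/LysM library and 1072 against 394 CPM in the WT library. The other named genes, Ivns1abp, Fam13c, Prom1, St8sia6 and Unc119b, had log2 ratios between 1.52 and 2.31. Each of the 16 named genes was higher in both libraries, as the naming rule requires.

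Genes of venous and sinusoid-like endothelium lay on the other side. Bgn, the matrix proteoglycan biglycan, had 41.1 against 194 CPM in the VEGF/LysM library and 54.3 against 259 CPM in the WT library, log2 -2.24 and -2.25. Sema3d, another class 3 semaphorin, had 10.3 against 110.3 CPM in the VEGF/LysM library and 24.3 against 132 CPM in the WT library. Gpr182, an atypical chemokine receptor of sinusoidal endothelium, had 50.6 against 198 CPM in the VEGF/LysM library and 46.5 against 215 CPM in the WT library. All 3 genes were at their lower level in Esm1/Npr3 cells of both libraries. Oit3 had 7.11 against 50.8 CPM in the VEGF/LysM library and 14.3 against 97.2 CPM in the WT library. The remaining named genes were Lbp, Gm6213, Nlgn1, Shisa9, Pcdh9 and Ccbe1, with log2 ratios from -2.86 to -1.75. Of these, Lbp encodes the lipopolysaccharide-binding protein, Nlgn1 and Pcdh9 are adhesion genes best known from neurons, and Ccbe1 encodes a secreted protein needed to process VEGF-C.

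**Figure D3:**
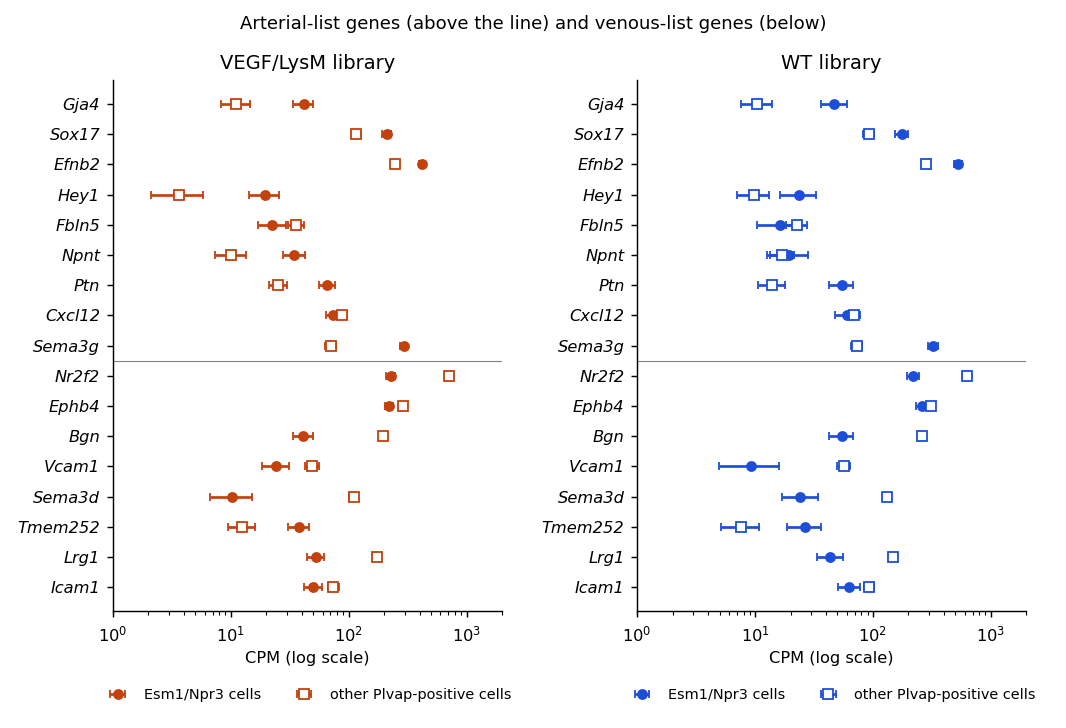
Level (CPM, log scale, with exact 95% Poisson intervals) of arterial-list genes above the line and venous-list genes below it, in Esm1/Npr3 cells (filled circles) and other Plvap-positive cells (open squares), in the VEGF/LysM library on the left and the WT library on the right. Efnb2, Sox17, Gja4 and Ptn lie higher and Nr2f2, Bgn and Lrg1 lower in Esm1/Npr3 cells of both libraries. Not every gene follows its list: Fbln5, on the arterial list, lies lower in the VEGF/LysM library, and Tmem252, on the venous list, lies higher in both.

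Lists of genes by vessel type showed the same sides. Of 15 arterial genes measured in the VEGF/LysM library, 8 were at least 1.5-fold higher and 2 lower, with a median log2 ratio of 0.76 beside -0.04 over all genes. In the WT library 6 of 11 were higher and 2 lower, with a median of 0.91 beside -0.05. Without the cells that carried markers of another cell type, 8 of 14 were higher and 4 lower in the VEGF/LysM library. In the WT library 6 of 10 were then higher and 3 lower. The arterial marker Fbln5 lay on the lower side in the VEGF/LysM library, with log2 ratios from -1.44 to -0.50 over all alternatives. Efnb2 encodes the arterial ligand ephrin-B2 and had 419 against 248 CPM in the VEGF/LysM library and 528 against 280.3 CPM in the WT library, log2 0.76 (0.64 to 0.88) and 0.91 (0.78 to 1.05). Sox17, a transcription factor of arterial identity, had 210 against 116 CPM in the VEGF/LysM library and 175 against 92.0 CPM in the WT library, log2 0.86 (0.68 to 1.03) and 0.93 (0.69 to 1.16). Ptn encodes pleiotrophin and stood at 66.0 against 25.3 CPM in the VEGF/LysM library and 54.3 against 13.99 CPM in the WT library. Some of these genes were found in few cells. A Gja4 UMI was found in 8.06% of VEGF/LysM and 6.03% of WT Esm1/Npr3 cells. For Ptn it was 5.86% and 4.48%, with cells that carried markers of another cell type left out. The genes of the list differed from one another. Npnt, a ligand of integrin alpha 8, had 34.4 against 10.1 CPM in the VEGF/LysM library and 19.3 against 17.1 CPM in the WT library. Its log2 ratios were 1.77 (1.24 to 2.31) and 0.18 (-0.52 to 0.83). When the rule was applied to the thinned cells, an alternative added after the data were seen, the arterial median was 0.03 in the VEGF/LysM library and 1.06 in the WT library, while Efnb2 and Sox17 had 0.89 and 0.88 in the VEGF/LysM library. The VEGF/LysM ratio of Npnt then reversed to -0.81.

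Of 9 venous genes measured in the VEGF/LysM library, 6 were at least 1.5-fold lower and 1 higher, with a median of -1.57. In the WT library 5 of 8 were lower and 1 higher, with a median of -1.64. Nr2f2 encodes COUP-TFII, the transcription factor of venous identity, and had 227 against 706 CPM in the VEGF/LysM library and 220.1 against 629 CPM in the WT library, log2 -1.64 (-1.77 to -1.51) and -1.51 (-1.69 to -1.34). Lrg1, a secreted glycoprotein, had log2 ratios of -1.73 in the VEGF/LysM and -1.76 in the WT library. Ephb4, the venous receptor of ephrin-B2, was nearer to even, with -0.40 in the VEGF/LysM and -0.26 in the WT library. The 1 gene on the other side was Tmem252 (log2 1.59 in the VEGF/LysM library and 1.80 in the WT library). Scavenger genes of sinusoids were lower as well, 3 of 4 in the VEGF/LysM library and 4 of 5 in the WT library. Among them Mrc1, the mannose receptor, had 43.5 against 140.3 CPM in the VEGF/LysM library and 55.7 against 170.0 CPM in the WT library. Of 3 measured genes of the lymphatic list, none was higher, 1 was lower in VEGF/LysM cells and 2 in WT cells. The tip-cell list, without the 6 tip-cell genes of the rule, had genes on both sides. Of its 6 measured genes 3 were higher and 2 lower in each library, with medians of 0.34 in the VEGF/LysM and 0.65 in the WT library. A leaning to tip-cell genes is thus not set apart from the arterial one by these lists.

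Notch signalling is used in arterial specification and in the choice between tip and stalk cells. In Esm1/Npr3 cells 4 of 12 Notch genes were higher and 1 lower in the VEGF/LysM library, and 4 higher and 2 lower in the WT library, with medians of 0.27 and 0.29. The ligand Dll4 had 294 against 154 CPM in the VEGF/LysM library and 329 against 146 CPM in the WT library, log2 0.94 (0.79 to 1.09) and 1.17 (0.99 to 1.35). The receptor Notch1 had 503 against 298 CPM in the VEGF/LysM library and 570 against 298 CPM in the WT library. Both libraries thus had more of a ligand and of its receptor in these cells. The target Hey1 was low in level, with 19.4 against 3.64 CPM in the VEGF/LysM library and 23.6 against 9.72 CPM in the WT library. Nrarp, a target that feeds back on the pathway, had 42.3 against 26.6 CPM in the VEGF/LysM library and 84.3 against 38.2 CPM in the WT library, log2 0.67 (0.28 to 1.05) and 1.14 (0.79 to 1.495). Lfng, a glycosyltransferase that modifies Notch receptors, went the other way, with a log2 ratio of -0.92 in the VEGF/LysM and -0.79 in the WT library.

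The VEGF receptors did not move as one. Flt1, the decoy-like receptor VEGFR1, had 4801 against 2972 CPM in the VEGF/LysM library and 4800 against 2925 CPM in the WT library, log2 0.69 (0.66 to 0.73) and 0.71 (0.67 to 0.76). Kdr, the main signalling receptor VEGFR2, had 2724 against 2097 CPM in the VEGF/LysM library and 3002 against 2350 CPM in the WT library, which is under 1.5-fold. Flt4, the receptor VEGFR3, was slightly lower (log2 -0.34 and -0.28). Among co-receptors, Nrp1 had log2 ratios of 0.29 and 0.21, whereas Nrp2, of veins and lymphatics, had 391 against 661 CPM in the VEGF/LysM library and 453 against 802 CPM in the WT library. The ligand Vegfc was at a low level, with 68.7 against 39.8 CPM in the VEGF/LysM library and 70.8 against 29.2 CPM in the WT library. Of the 7 genes measured, 2 were higher and 1 lower in the VEGF/LysM library, and 3 higher and 1 lower in the WT library.

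Of 20 VEGF-A-responsive genes, a list from which the rule's own genes were left out of the counts, 7 were higher and 3 lower in each library. Besides Igfbp3, Dll4, Nrarp and Hey1, Unc5b, a netrin receptor of vessels, had 124 against 72.8 CPM in the VEGF/LysM library and 131 against 81.4 CPM in the WT library. Lamb1, a laminin chain, had log2 ratios of 1.37 in the VEGF/LysM and 1.01 in the WT library. Adamts1, a matrix protease, went the other way with -0.92 in both libraries, and Trp53i11 with -0.94 in the VEGF/LysM and -0.75 in the WT library. A list named for VEGF-A therefore held genes on both sides.

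TGF-beta and BMP genes split in the same manner, with 3 of 16 higher and 3 lower in the VEGF/LysM library and 3 of 15 higher and 2 lower in the WT library. The receptor Tgfbr2 had 1103 against 678 CPM in the VEGF/LysM library and 1277 against 782 CPM in the WT library. The inhibitor Smad6 had 69.5 against 36.0 CPM in the VEGF/LysM library and 59.3 against 35.8 CPM in the WT library. The target Id1 had log2 ratios of 0.68 in the VEGF/LysM and 0.93 in the WT library. The ligands lay on both sides. Tgfb2, which is not on this list, was higher as given above, whereas Bmp2 had 30.4 against 81.0 CPM in the VEGF/LysM library and 70.8 against 133 CPM in the WT library. Ltbp4, which holds latent TGF-beta in the matrix, had log2 ratios of -1.004 in the VEGF/LysM and -0.99 in the WT library.

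Junction, matrix and trafficking genes gave smaller counts. Cldn5, the claudin of endothelial tight junctions, had 229 against 499 CPM in the VEGF/LysM library and 295 against 519 CPM in the WT library. Of the matrix list 4 of 18 were higher and 3 lower in the VEGF/LysM library, and 3 of 17 higher and 2 lower in the WT library. Sparcl1 was on the higher side, with 236 against 135 CPM in the VEGF/LysM library and 214 against 111 CPM in the WT library. Col13a1 and Emilin1 were on the lower side, with log2 ratios of -1.31 and -1.14 in the VEGF/LysM library and -1.26 and -1.05 in the WT library. Of 12 genes of fenestrae and caveolae, none was higher, 2 were lower in the VEGF/LysM library and 1 in the WT library. The caveolar coat gene Cavin2 was lower in both, with 170 against 345 CPM in the VEGF/LysM library and 279 against 454 CPM in the WT library. Integrins were 1 higher and 3 lower of 13 in the VEGF/LysM library and 0 higher and 4 lower of 12 in the WT library, and Itgb3 had log2 ratios of -0.91 in the VEGF/LysM and -0.84 in the WT library. Semaphorins and plexins were 2 higher and 2 lower of 12 in the VEGF/LysM library and 2 higher and 1 lower of 11 in the WT library, with Sema7a, a membrane-anchored semaphorin, at log2 1.15 in the VEGF/LysM and 1.19 in the WT library.

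Npr3 is part of the natriuretic peptide system, and the other genes of that system did not stand out. None of 5 measured genes passed 1.5-fold in either library. Npr1, the receptor that makes cyclic GMP, had 132 against 185 CPM in the VEGF/LysM library and 162 against 209 CPM in the WT library. Prkg1, the kinase that cyclic GMP activates, had log2 ratios of -0.25 in the VEGF/LysM and -0.27 in the WT library. Among vasoactive genes, Ece1, which cleaves endothelin precursors, had 370 against 237 CPM in the VEGF/LysM library and 414 against 244 CPM in the WT library. The prostanoid genes Ptgs1 and Tbxas1 were lower, with log2 ratios of -0.89 and -1.20 in the VEGF/LysM library and -1.34 and -1.59 in the WT library. In that list 3 of 11 genes were higher and 2 lower in the VEGF/LysM library, and 2 higher and 2 lower in the WT library. Scarb1, the receptor that takes up cholesterol from high-density lipoprotein, had 320 against 212 CPM in the VEGF/LysM library and 344 against 213 CPM in the WT library.

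The Esm1/Npr3 cells were not uniform. All kept cells of both libraries were clustered without the 12 genes of the rule, and 1 of the 20 clusters held more Esm1/Npr3 cells than any other. It contained 405 VEGF/LysM Esm1/Npr3 cells (47.3%) and 461 WT ones (52.5%), and among its leading genes were Gm14226, AC167229.1, Cyp26b1 and Serpine2. Of its Plvap-positive cells 78.8% in the VEGF/LysM library and 66.8% in the WT library were Esm1/Npr3 cells. A cluster led by the interferon-induced genes Cxcl10, Ifit3 and Isg15 held 122 VEGF/LysM (14.3%) and 76 WT (8.65%) Esm1/Npr3 cells. By contrast, a cluster led by Nlgn1, Oit3, Bgn and Sema3d held 5 VEGF/LysM and 11 WT ones. A cluster with Lgr5, Tspan8, Npnt and Bmx among its leading genes held 31 VEGF/LysM (3.62%) and 20 WT (2.28%) Esm1/Npr3 cells. Their part in the arterial-list levels above was not tested. The rest lay in other clusters, so the rule does not pick a single cluster.

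Cells also differed along the share of their UMIs that came from the 5 markers. They were divided within each library into 3 equal-sized groups by that share. Its median was 1.80, 4.24 and 9.50 marker UMIs per 1000 UMIs in VEGF/LysM cells and 2.72, 5.33 and 10.0 in WT cells. From the lowest to the highest group, Ivns1abp had 230, 464 and 1024 CPM in VEGF/LysM cells and 346, 621 and 1097 CPM in WT cells. Gja1 had 145, 248 and 470 CPM in VEGF/LysM cells and 199, 361 and 490 CPM in WT cells. Dkk2, Sema3g, Lifr, Flt1 and Cyp26b1 also stepped upwards in both libraries. Bgn stepped down, with 63.8, 34.0 and 12.2 CPM in VEGF/LysM cells and 94.7, 25.3 and 13.9 CPM in WT cells. Prom1 stepped down too although it was higher in these cells as a whole, with 34.2, 16.4 and 9.13 CPM in VEGF/LysM cells. Gja4, Met and Tgfb2 had no steady order. Immune-cell RNA moved along the same groups in the VEGF/LysM library: from the lowest to the highest group Lyz2 had 285, 8.83 and 1.52 CPM and Cd74 had 510, 94.6 and 71.5 CPM. In WT cells Lyz2 had 32.6, 42.9 and 19.5 CPM. The part of such RNA in the steps of the other genes was not tested. The groups were formed from the markers, whose share also rests on depth. The median depth of the 3 groups was 2872, 2312 and 2156 UMIs in VEGF/LysM cells and 1667, 1188 and 1140 UMIs in WT cells.

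**Figure D4:**
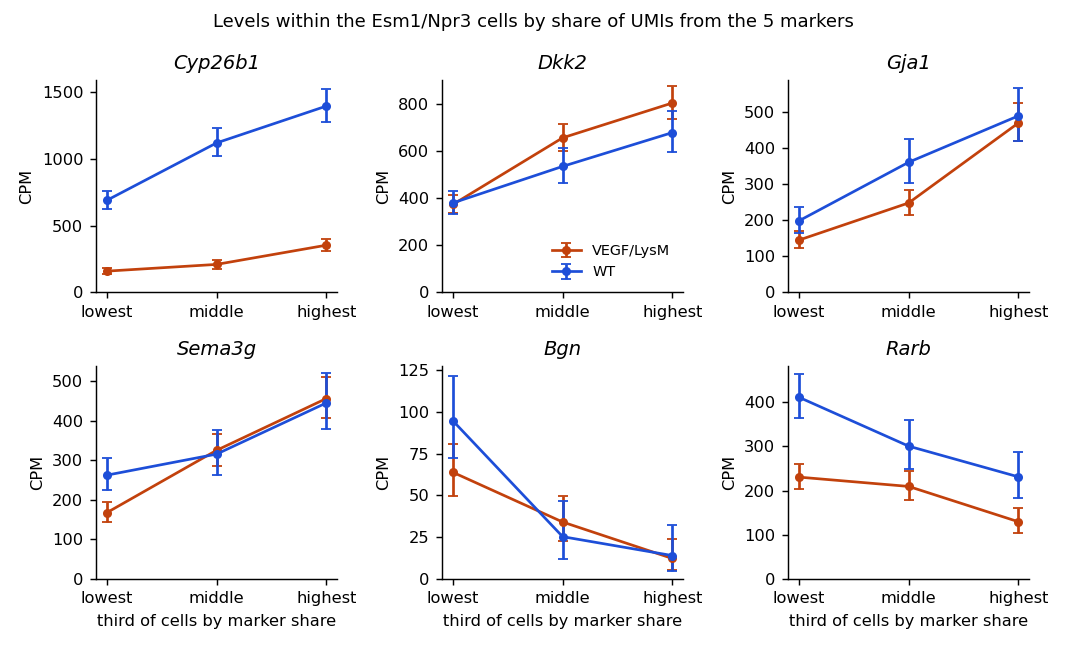
Level (CPM, with exact 95% Poisson intervals) of 6 genes in Esm1/Npr3 cells divided into 3 equal-sized groups by the share of their UMIs that came from the 5 markers (x axis), in VEGF/LysM cells (orange) and WT cells (blue). Cyp26b1, Dkk2, Gja1 and Sema3g step upwards in both libraries, Bgn and Rarb step down, and the VEGF/LysM level of Cyp26b1 lies below the WT level in every group.

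Cells just inside and just outside the rule did not differ in 1 direction. Dkk2 had 319 CPM in VEGF/LysM and 344 CPM in WT cells with exactly 3 marker UMIs, which are just inside, and 375 CPM in VEGF/LysM and 298 CPM in WT cells just outside, with 2 marker UMIs from 2 genes. Cyp26b1 had 158 CPM just inside and 180 CPM just outside in VEGF/LysM cells, and 681 CPM just inside and 435 CPM just outside in WT cells. Bgn had 150 CPM just inside and 41.1 CPM just outside in VEGF/LysM cells, and 72.7 CPM just inside and 101 CPM just outside in WT cells. Oit3 had 39.4 CPM just inside and 5.14 CPM just outside in VEGF/LysM cells, and 33.1 CPM just inside and 17.9 CPM just outside in WT cells. These levels rest on 78 VEGF/LysM and 105 WT cells just inside and on 73 VEGF/LysM and 115 WT cells just outside. No intervals were computed for them. Levels as low as those of Oit3 come from very few UMIs, so their differences can be counting error.

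Between the libraries, the Esm1/Npr3 cells had most of their genes at like levels, and 1 gene of the group stood out. Cyp26b1 was 4.39-fold lower in VEGF/LysM Esm1/Npr3 cells, at 226 CPM against 994 CPM in WT ones. The retinoic acid receptor Rarb, the Notch target Nrarp, the ligands Bmp2 and Sema3c and the adhesion genes Pcdh9 and Lrp1b were lower too. Genes of MHC class II and 5 of 11 heat-shock genes were higher, as were genes of immune cells, whose RNA lay mostly in 54 cells with markers of another cell type. Of 8817 genes with at least 50 UMIs, 379 (4.3%) were at least 1.5-fold higher in the VEGF/LysM library and 277 (3.14%) at least 1.5-fold lower. In the other Plvap-positive cells the shares were 3.61% higher and 2.61% lower of 11048 genes.

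Cyp26b1 encodes a cytochrome P450 that clears retinoic acid inside the cell, and it lies on chromosome 6 (84571414 to 84593908, minus strand). Its log2 ratio of VEGF/LysM over WT was -2.13 (-2.28 to -1.99) in Esm1/Npr3 cells and -1.84 (-2.03 to -1.65) in the other Plvap-positive cells. A Cyp26b1 UMI was found in 22.2% of VEGF/LysM and 44.6% of WT Esm1/Npr3 cells, although the VEGF/LysM cells were deeper. The difference between the log2 ratios of both sets of cells was -0.30 (-0.53 to -0.07). This difference turned to 0.33 (0.05 to 0.61) when cells with 2 or more tip-cell genes were left out of the other Plvap-positive cells, so it does not show that the drop was larger in Esm1/Npr3 cells. Within the main cluster, where the WT level was 1389 CPM, the VEGF/LysM level was 368 CPM. In the interferon-gene cluster the levels were 186 CPM in VEGF/LysM and 870.5 CPM in WT cells. The lower level was thus seen in both of these clusters.

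Rarb encodes retinoic acid receptor beta, whose gene is known to be switched on by retinoic acid through an element at its promoter. It had 198 CPM in VEGF/LysM and 334 CPM in WT Esm1/Npr3 cells, log2 -0.76 (-0.94 to -0.57). In the other Plvap-positive cells it had 362 CPM in the VEGF/LysM library and 540.5 CPM in the WT library, log2 -0.58 (-0.67 to -0.49). Rarb thus lay lower in VEGF/LysM cells of both kinds, where Cyp26b1 was lower too. Within each library Rarb lay lower in Esm1/Npr3 cells, where Cyp26b1 was higher. The genes therefore did not keep 1 relation over these comparisons, and a link between them was not tested. To show the element, the 100 bases before the start site that RefSeq gives for Rarb are printed here 5′ to 3′ on the minus strand (GRCm38.p6, chr14:16575477-16575576), with capitals for the match to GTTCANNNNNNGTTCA, a direct repeat of the short site that retinoic acid receptors bind.

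Rarb promoter: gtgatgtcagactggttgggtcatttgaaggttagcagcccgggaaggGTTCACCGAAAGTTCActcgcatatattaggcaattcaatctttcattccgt

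The match lies 52 to 37 bases before the start site. Both strands were searched, and 25 of 32851 RefSeq windows from 250 bases before to 50 bases after a start (0.0761%) hold it. Of 15 retinoic acid genes with a window, Cyp26a1 and Rarb had a match and Cyp26b1 had none in this window. A match is a description of the letters and says nothing on binding in these cells. The rest of the retinoic acid list did not follow: of 10 genes measured, 2 were lower in VEGF/LysM Esm1/Npr3 cells, namely Cyp26b1 and Rarb, and none was higher. The reductase gene Dhrs3 had a log2 ratio of -0.20, and the receptors Rara, Rarg and Rxra had -0.29, -0.18 and -0.16.

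**Figure D5:**
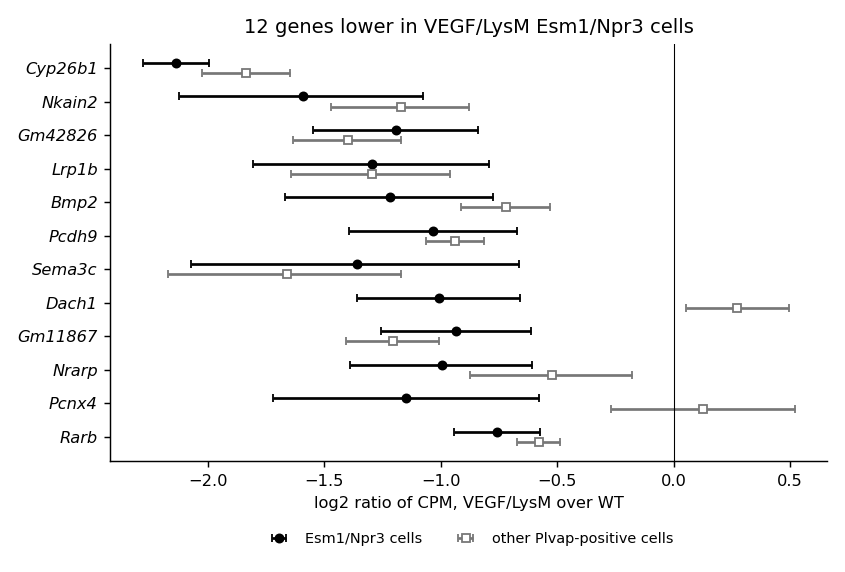
Log2 ratio of CPM, VEGF/LysM over WT (x axis, with 95% counting intervals), of the 12 genes named as lower, in Esm1/Npr3 cells (filled circles) and other Plvap-positive cells (open squares). Most genes lie at like ratios in both sets of cells, and Dach1 and Pcnx4 lie below 0 in Esm1/Npr3 cells alone.

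Of the other genes named as lower, Nrarp had 42.3 CPM in VEGF/LysM and 84.3 CPM in WT Esm1/Npr3 cells, log2 -0.996 (-1.39 to -0.61). It was the only 1 of 11 measured Notch genes past 1.5-fold, since Dll4 (log2 -0.16) and Notch1 (-0.18) were near even. Bmp2 had 30.4 CPM in VEGF/LysM and 70.8 CPM in WT cells, log2 -1.22 (-1.67 to -0.77), and -0.72 in the other Plvap-positive cells. Sema3c, Nkain2, Lrp1b and Pcdh9 had log2 ratios of -1.36, -1.59, -1.29 and -1.03 in Esm1/Npr3 cells. The ratios of these 4 genes in the other Plvap-positive cells lay between -1.66 and -0.94, so the lower levels were not particular to Esm1/Npr3 cells.

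Dach1, a transcription factor gene of coronary and arterial growth, had 52.5 CPM in VEGF/LysM and 106 CPM in WT Esm1/Npr3 cells, log2 -1.01 (-1.36 to -0.66), and 0.27 (0.05 to 0.50) in the other Plvap-positive cells. Much of its RNA lay in few cells: 62.4% of its VEGF/LysM and 48.0% of its WT UMIs were in Esm1/Npr3 cells with markers of another cell type. Without those cells the log2 ratio was -1.37, and without likely doublets it was -0.09. Its difference thus rests on which cells are kept. Pcnx4, whose role in endothelium is not described here, had 19.4 CPM in VEGF/LysM and 42.9 CPM in WT Esm1/Npr3 cells, from 49 and 60 UMIs.

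The 12 genes named as higher in VEGF/LysM Esm1/Npr3 cells are mainly genes of immune cells, and their RNA lay in few cells. Lyz2, the lysozyme of myeloid cells and the LysM of the label, had 125 CPM in VEGF/LysM and 32.2 CPM in WT Esm1/Npr3 cells, log2 1.96 (1.503 to 2.44). Cd74, the MHC class II chaperone, had 266 CPM in VEGF/LysM and 52.2 CPM in WT ones, log2 2.35. Ms4a6c, Cd163l1 and Apbb1ip had no UMI in WT Esm1/Npr3 cells, and were at least 11.2-fold, 10.1-fold and 9.40-fold higher against a floor of 3 counts in the WT cells, a bound that leaves out the counting error of their 61, 55 and 51 VEGF/LysM UMIs. Pid1, Il18r1, Emb, Arhgap15, Skap1, Cd52 and C1qb had log2 ratios between 2.41 and 4.82. They had at most 14 UMIs in WT Esm1/Npr3 cells and passed the limit through their VEGF/LysM UMIs, so their direction is part of how they were chosen. Between 74.9% and 100% of the VEGF/LysM UMIs of these 12 genes lay in the 54 cells with markers of another cell type.

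Without the cells that carried such markers, 802 VEGF/LysM and 849 WT Esm1/Npr3 cells remained, and only Cd74 of these 12 genes was still among the 12 leading ones. Cd74 then had 78.4 CPM in VEGF/LysM and 8.55 CPM in WT cells, log2 3.20. H2-Eb1 and H2-Ab1, which encode MHC class II chains, had 34.3 and 57.1 CPM in VEGF/LysM and 6.22 and 23.3 CPM in WT cells. Tspo, a mitochondrial membrane protein gene, had 261 CPM in VEGF/LysM and 131 CPM in WT cells. Zbtb16, a transcription factor gene known to be induced by glucocorticoids, had 92.8 CPM in VEGF/LysM and 42.0 CPM in WT cells. Of the genes named as lower, 11 of 12 were named again without these cells. Cmss1, Mir6236, Gm28438 and CT010467.1, which can hold reads of ribosomal or mitochondrial repeats, were also among the 12 and are uncertain. This comparison was added after the data were seen.

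MHC class II genes lay higher in the VEGF/LysM library in both sets of cells. In the other Plvap-positive cells 6 of the 7 genes were higher, with a median log2 ratio of 1.13 beside -0.03 over all genes. In Esm1/Npr3 cells 5 of the 7 reached 50 UMIs, H2-DMb1 among them through its VEGF/LysM UMIs, so no count is given for that set. There H2-Aa had 88.9 CPM in VEGF/LysM and 37.9 CPM in WT cells, log2 1.23 (0.79 to 1.69). H2-Eb1 had 107 CPM in VEGF/LysM and 35.0 CPM in WT cells, log2 1.61 (1.17 to 2.08).

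Other lists moved in part or not at all. Heat-shock genes were higher for 5 of 11 (median 0.43) in Esm1/Npr3 cells and 4 of 12 (0.51) in the other cells. Among them the chaperone Hspa8 had 312 CPM in VEGF/LysM and 176 CPM in WT Esm1/Npr3 cells, log2 0.83 (0.62 to 1.04). Respiratory chain genes had medians of 0.35 in both sets of cells, but only 3 of 20 passed 1.5-fold in Esm1/Npr3 cells and 2 of 20 in the other cells. Of 18 VEGF-A-responsive genes none was higher and 1, Nrarp, was lower, with a median of -0.21.

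Among the VEGF and vessel-type lists, none of 7 VEGF receptor and ligand genes passed 1.5-fold in either direction, and Flt1 had 4801 CPM in VEGF/LysM and 4800 CPM in WT Esm1/Npr3 cells. Arterial genes were higher for 3 of 12 (median 0.29) and lower for none, beside 4.3% higher over all genes. Without the cells that carried markers of another cell type 5 of 11 were higher (median 0.45). A gene can reach the UMI limit mainly through its VEGF/LysM UMIs, so these counts give no direction for the list. In the other Plvap-positive cells 4 of 14 arterial genes were higher and 2 lower (median 0.33). In Esm1/Npr3 cells the arterial median lay between -0.23 and 0.45 over all alternatives. Venous genes were higher for 1 of 8 and lower for 1. None of the 5 natriuretic peptide genes measured passed the limit. Igfbp3 had 3188 CPM in VEGF/LysM and 4054 CPM in WT Esm1/Npr3 cells, log2 -0.35 (-0.40 to -0.30), and 0.05 in the other Plvap-positive cells. Immediate-early genes had a median of -0.21 with 1 of 15 past the limit, namely Egr1 at 211 CPM in VEGF/LysM and 352 CPM in WT Esm1/Npr3 cells.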

How the data were processed

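The deposited files hold raw UMI counts per gene and cell barcode of 54838 genes. Per the submitters' processing notes the authors used Cell Ranger 7.0.1, Seurat and the mm10 build, and the file headers name Cell Ranger 7.0.0. The sources used here state neither the annotation release nor whether introns or the strand entered the counting. Of 10083 barcodes, 9927 passed the cell filter (a minimum of 500 UMIs and 300 genes, and no more than 15% of UMIs from mitochondrial genes). Symbols that occur more than once (103) were kept apart by gene ID.

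UMIs were summed over the cells of a set and divided by the set's total (CPM). A ratio of CPM carries an exact conditional binomial 95% interval, a level an exact Poisson one and a share an exact Clopper-Pearson one. All cover counting error only, and cells of 1 library are not replicates. With 1 library per group no p-value was computed. The median kept cell had 2343 UMIs in the VEGF/LysM library and 1189.5 in the WT library, so shares were compared after thinning to 1000 UMIs. Genes with at least 50 UMIs over the sets compared were counted as past the limit from 1.5-fold, leaving out the rule's 12 genes. The ratio step was tested on simulated data.

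The members, the 33 gene lists and the alternatives were chosen with earlier results of these data known, so none is independent support. Named genes are, among those with at least 20 CPM, the 16 higher and 10 lower against other Plvap-positive cells, and the 12 higher and 12 lower between libraries, whose interval bound was farthest from 0 (in the library where it was nearer, for the first 2 sets). Mitochondrial and ribosomal protein genes were not ranked. Members of the lists with at least 20 CPM may be named too. Differences of log2 ratios carry a delta-method interval. Clusters came from scanpy 1.11.5 with leidenalg 0.10.2 (2000 variable genes, 30 components, 15 neighbours, resolution 1). Doublets were kept; the Scrublet scores found 4 VEGF/LysM and 1 WT barcode by their own limit, which is too few to have worked, and leaving out the highest scores at 0.8% per 1000 barcodes was an alternative (116 VEGF/LysM and 315 WT barcodes). Python 3.11.15, numpy 2.4.6, scipy 1.17.1, pandas 2.3.3 and matplotlib 3.10.9 were used. The promoter sequence is from RefSeq (GRCm38.p6).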

Additional observations from a re-analysis of the deposited data

Results flagged for a closer look

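Differences in opposite directions marked the results below. None was tested over replicates, since each group is 1 library. Against other Plvap-positive cells, 4 genes, among them the immune-cell genes Lyz2 and Ptprc, were higher in VEGF/LysM Esm1/Npr3 cells and lower in WT Esm1/Npr3 cells. Pid1 had a log2 ratio of 0.64 in the VEGF/LysM library and -4.01 in the WT library, and Ptprc, the CD45 gene, had 0.55 and -1.64. Arhgap15 had 0.33 in the VEGF/LysM library and -1.90 in the WT library, and Lyz2 had 0.88 and -1.84. Of the VEGF/LysM member UMIs of Lyz2, 86.4% lay in cells with markers of another cell type. The same cells held 96.1% of the VEGF/LysM and 100% of the WT member UMIs of Pid1, and 99.3% of the VEGF/LysM and 100% of the WT ones of Arhgap15. With the rule on thinned cells the VEGF/LysM ratio of Lyz2 reversed to -3.91, the direction it had in the WT library.

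Dach1 went the other way, with a log2 ratio of -0.70 against other Plvap-positive cells in the VEGF/LysM library and 0.58 in the WT library. Between libraries, VEGF/LysM over WT, Dach1 had -1.01 in Esm1/Npr3 cells and 0.27 in the other Plvap-positive cells. Lyz2 had 1.96 in Esm1/Npr3 cells and -0.76 in the other cells. Npnt had 0.83 in Esm1/Npr3 cells and -0.76 in the other cells.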

How the results depend on the processing

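No paired analysis was possible because there is 1 library per group. The gap in the share of Esm1/Npr3 cells (1.98 points) was 8.24 points without thinning, 6.40 points of Plvap-positive cells and 5.34 points after thinning to 2000 UMIs. Of genes against other Plvap-positive cells, 178 were higher and 280 lower, but 50 and 105 with a limit of 2-fold and 272 and 466 with at least 20 UMIs per gene, and 185 were lower with at least 100 UMIs. Between libraries 379 were higher and 277 lower, but 100 and 25 with 2-fold, 882 and 629 with at least 20 UMIs, and 170 and 107 with at least 100 UMIs. The difference of the Cyp26b1 library ratio between both sets of cells reversed to 0.33 with tip-cell gene carriers left out of the other cells. With the rule on thinned cells, some ratios against other Plvap-positive cells reversed: Hba-a1 to 0.38 in the VEGF/LysM and 0.92 in the WT library, Hba-a2 to 0.20 and 0.75, Hbb-bs to 0.39, Lyz2 to -3.91 and Npnt to -0.81 in the VEGF/LysM library. Edn1 in the VEGF/LysM library reversed to -0.0057 with at least 4 marker UMIs and to -0.17 as a mean over cells. The cause was not tested. Over all alternatives 3302 other values stayed, 404 moved and 10 reversed, and the library ratio of Cyp26b1 in Esm1/Npr3 cells lay between -2.22 and -1.86. Depth limits what can be said of genes with few UMIs, since a WT Esm1/Npr3 cell had a median of 1299 UMIs.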

Other observations

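Genes of fatty-acid handling and steroid response were measured beside the groups above. Of 12 measured fatty-acid genes, none was higher and 1 lower in VEGF/LysM than in WT Esm1/Npr3 cells, with a median of -0.15. Without the cells that carried markers of another cell type, 2 of 10 were higher and none lower, with a median of 0.02. Over all alternatives the median lay between -0.21 and 0.10, so no direction is given for this list. In the other Plvap-positive cells 2 of 13 were higher and none lower. Fabp4, whose protein carries fatty acids within capillary endothelium, had 3085 CPM in VEGF/LysM and 2116 CPM in WT Esm1/Npr3 cells. Its log2 ratio was 0.54, which is under 1.5-fold, and 0.80 in the other Plvap-positive cells. Of 10 glucocorticoid-response genes, none was higher and 1 lower against the other Plvap-positive cells in each library, and 2 were higher in VEGF/LysM than in WT Esm1/Npr3 cells. Nr3c1, the glucocorticoid receptor, had 241 against 199 CPM in the VEGF/LysM library and 259 against 183 CPM in the WT library.

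The angiopoietin receptor gene Tek was lower in Esm1/Npr3 cells, with 837 against 1224 CPM in the VEGF/LysM library and 833 against 1267 CPM in the WT library, log2 -0.55 (-0.62 to -0.48) and -0.61 (-0.70 to -0.51), the first of which is under 1.5-fold. Its partner Tie1 was near even, with 415 against 399 CPM in the VEGF/LysM library and 438 against 416.5 CPM in the WT library. The 5 haemoglobin and red-cell genes summed to 204 CPM in VEGF/LysM Esm1/Npr3 cells and 191 CPM in WT ones, against 569 and 277 CPM in the other Plvap-positive cells of the same libraries. In the VEGF/LysM library 5 cells held 259 of the 515 UMIs of Esm1/Npr3 cells, and 5 cells held 2133 of the 2655 UMIs of the other cells. With the rule on thinned cells Hba-a1 was on the higher side in Esm1/Npr3 cells, with log2 ratios of 0.38 in the VEGF/LysM and 0.92 in the WT library, so no direction is given for this list.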
